A study of Mus musculus with 4 samples.

Results

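A set of 10 surface marker genes used to tell fibroblasts from pluripotent stem cells were followed through RNA of a mouse clone of induced pluripotent stem (iPS) cells, of mouse embryonic fibroblasts (MEFs) and of an embryonic stem (ES) cell line. The genes were Thy1, Ly6a, Tm4sf1, Cd44, Icam1, Cd9, Kit, Alpl, Fut4 and Fut9, and each non-control probe that the array annotation names for one of them was taken. Alpl is named Akp2 on the array. This gave 19 of the 41174 gene probes of the array. Of the 19 probes, 16 passed the filter on dim probes and were tested among 27710 probes. The other 3, 1 of Cd9 and 2 of Fut9, stayed out because they were not well above background on all arrays of any RNA.

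Each of 4 Agilent whole-genome arrays compared a red (Cy5) sample with ES cells in green (Cy3). Red held the iPS clone on 2 arrays and MEFs on the other 2. The iPS cells were 1 clone, taken 30 days after transduction, and which factors were transduced is not given in the sources used here. The MEFs had been through several passages. The ES cells were the line CGR8.8, and both stem cell types were grown with the cytokine LIF (leukemia inhibitory factor) at 1000 IU/ml, which holds mouse ES cells undifferentiated. Replicates 1 and 2 of a group are described as biological replicates, without word on whether their cultures were grown apart. A p-value here rests on 1 spread a probe, shared by both groups of 2 arrays and drawn toward that of all probes. That spread may be technical.

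The markers belong to several molecular families. Thy1 (CD90), a small glycoprotein anchored in the membrane by a lipid, and Ly6a (Sca-1), a member of the Ly6 family with the same kind of anchor, are used to sort fibroblasts and blood-forming stem cells. Tm4sf1 is a membrane protein of the L6 family, and Cd44 is the main receptor for hyaluronan, a sugar polymer of the matrix. Icam1 is the adhesion molecule that leukocyte integrins bind, and in reprogramming experiments Cd44 and Icam1 are used together to sort cells between the fibroblast and the iPS state. Cd9 is a tetraspanin of ES cells, Kit the receptor for stem cell factor, and Alpl the alkaline phosphatase whose activity stains pluripotent colonies. Fut4 and Fut9 are fucosyltransferases that make the Lewis X sugar, the SSEA-1 antigen of mouse ES cells.

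Values below are log2 ratios of red over green on each array, with the standard error of the limma coefficient (n = 2 arrays a group). A probe was called higher or lower at a Benjamini-Hochberg adjusted p under 0.05 in limma, over all 27710 probes, with at least a 2-fold change. The share of gene probes well above background was 61.0% to 63.2% in red and 62.0% to 63.4% in green. Across all tested probes the replicate arrays correlated at 0.989 (MEFs) and 0.992 (iPS cells). The 8 fibroblast markers, among them the collagens Col1a1 and Col1a2, were all higher in MEFs than in ES cells, and the 8 pluripotent cell markers were all lower. The same lists were 8 of 8 lower and 8 of 8 higher in iPS cells over MEFs. In iPS cells over ES cells, 0 of the 8 fibroblast markers were higher and 6 lower. Of the 8 pluripotent cell markers, 5 were higher there, 1 lower (Pou5f1 at -1.35 ± 0.072) and 2 not called. The summed ES signal of these markers differed between MEF and iPS arrays, as given below. Dyes were not swapped, so an effect of the dye on a gene stays in ratios over ES cells and drops out of iPS cells over MEFs. The arrays share 1 slide and 1 scan, and an array's place on it cannot be told apart from its group.

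In MEFs over ES cells, 6 of the 16 tested probes were called higher and 4 lower, against 12.5% higher and 12.3% lower among all 27710 probes. Counted by gene, with the brightest probe standing for each, 4 of 10 were higher (Thy1, Ly6a, Tm4sf1 and Cd44), 3 lower (Icam1, Kit and Alpl) and 3 not called (Cd9, Fut4 and Fut9). All genes measured so gave 13.8% in each direction. In iPS cells over ES cells, 4 probes were higher, against 7.96% of all probes, and 2 lower, against 10.7%, and the lower share of the members was near that background. The genes higher were Icam1, Cd9, Kit and Alpl, and the gene lower was Cd44, against 9.08% and 12.1% of all genes. For iPS cells over MEFs, 5 probes were higher and 6 lower, against 15.1% and 17.5% of all probes. By gene, Icam1, Cd9, Kit and Alpl were higher and Thy1, Ly6a, Tm4sf1 and Cd44 lower, against 16.9% and 19.0% of all genes. Both comparisons over ES cells use the same ES line as their base, and all 3 comparisons share arrays. The median over the 16 probes was 0.03, 0.17 and 0.15 in the 3 comparisons, beside -0.013, -0.0093 and 0.014 over all probes. Probes of a gene share its transcript and are not independent.

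**Figure D1:**
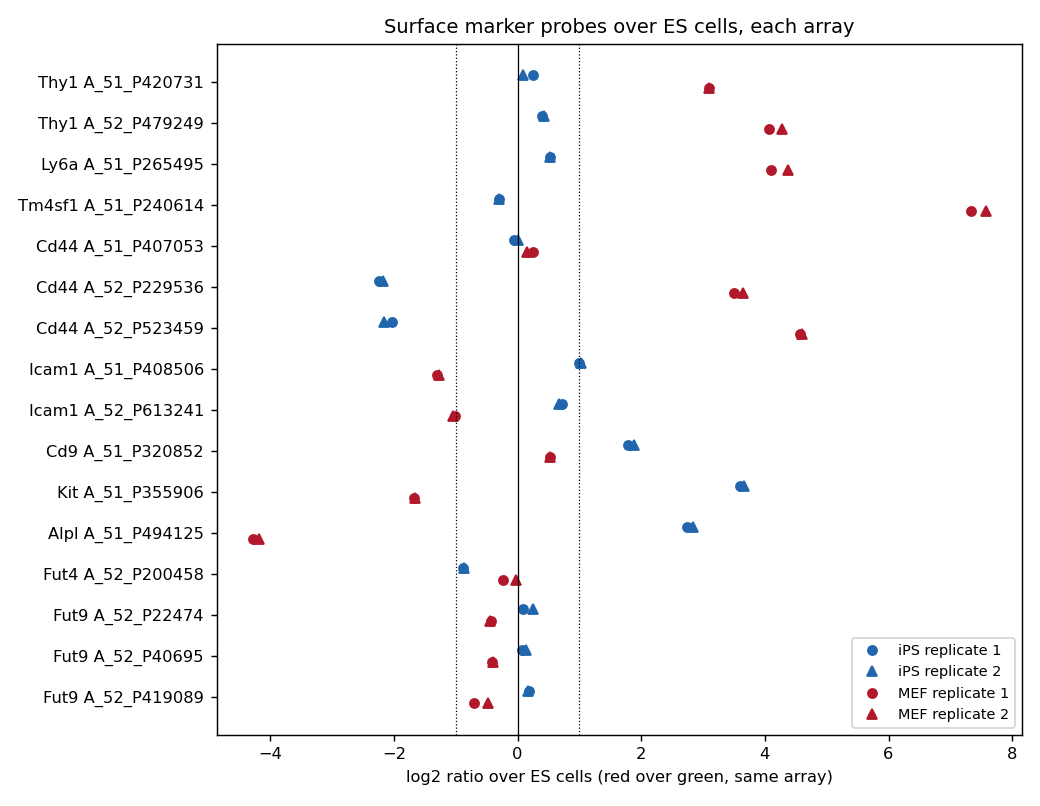
Log2 ratio over ES cells of each tested probe on each array, with blue points for iPS arrays and red points for MEF arrays (circles replicate 1, triangles replicate 2). Dotted lines mark a 2-fold change. Thy1, Ly6a, Tm4sf1 and 2 Cd44 probes lie far to the right on MEF arrays, and Kit and Alpl lie to the right on iPS arrays and to the left on MEF arrays.

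The calls depend on how 14 spots of the array of MEF replicate 1 were handled. These spots had a local background above 500, up to 694663, and 6 of them also carried a feature outlier flag. With flagged spots removed and the rest of the 14 kept in the background model, the ratios of that array shrank. Tm4sf1 then stood at 3.22 on it, against 7.57 on the array of MEF replicate 2, and Alpl at -0.51, against -4.18. With only the spots that carry a feature outlier flag removed, as first planned, 0 member probes were called in either direction in MEFs over ES cells by limma (7 of the 16 at an unadjusted p under 0.05; adjusted p of 0.061 to 0.93), and 578 of all probes were called (306 higher and 272 lower). Under that rule 2 member probes were higher and 0 lower in iPS cells over ES cells, and 2 were higher and 1 lower in iPS cells over MEFs. In the fit used here the 14 spots were left out, and without MEF replicate 1 altogether 6 member probes were again higher and 4 lower, where the lone MEF array is assumed to vary like the iPS arrays.

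Thy1 stood far higher in MEFs than in either stem cell type. Its probe A_52_P479249 stood at 0.40 and 0.42 on the iPS arrays and at 4.07 and 4.27 on the MEF arrays. The MEF arrays lay far above the iPS arrays, which were close together. The change was 4.17 ± 0.059 in MEFs over ES cells (18.0-fold, adjusted p = 5.69e-09 in limma) and -3.76 ± 0.084 in iPS cells over MEFs (adjusted p = 2.84e-08). In iPS cells over ES cells it was 0.41 ± 0.059, which is under 2-fold and was not called. The second probe, A_51_P420731, whose mapped span of 446 bases is longer than the 60 bases of a probe, stood at 0.26 and 0.08 on the iPS arrays and at 3.09 and 3.10 on the MEF arrays. Both probes were called in MEFs and neither in iPS cells over ES cells. For A_51_P420731 the ES signal was not well above background on either iPS array. Its iPS value over ES cells is thus only a bound, at least 1.12-fold. In bulk RNA, fewer cells of a type and less RNA per cell cannot be told apart. The first 30 bases of the probes are given here because the probes differ in how much signal the ES RNA gave, as described further on. Positions are on mm8.
Thy1 A_52_P479249 (chr9:43799512-43799571, plus strand): cactgctacagcatctcaccgaggaaagaa
Thy1 A_51_P420731 (chr9:43797903-43798348, plus strand): gcgcgaatcccatgagctccaataaaagta

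Ly6a followed the same order, MEFs above iPS cells and ES cells. Its 1 probe stood at 0.52 and 0.53 on the iPS arrays and at 4.10 and 4.37 on the MEF arrays. The lowest MEF array was thus above both iPS arrays by a wide margin. It rose by 4.24 ± 0.069 in MEFs over ES cells (18.9-fold, limma adjusted p = 7.67e-09) and fell by 3.71 ± 0.097 in iPS cells over MEFs (adjusted p = 5.57e-08). The iPS value over ES cells, 0.53 ± 0.069, was not called.

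Tm4sf1 had the widest difference of the 10 genes in MEFs. It stood at -0.31 and -0.30 on the iPS arrays and at 7.33 and 7.57 on the MEF arrays. Its 7.45 ± 0.065 in MEFs over ES cells (175-fold, limma adjusted p = 3.85e-09) was the 3rd highest of the 27710 tested probes. Against MEFs, the clone fell by 7.75 ± 0.091 (216-fold lower, adjusted p = 4.24e-09). In iPS cells it was well above background on 1 of 2 arrays, and its -0.30 ± 0.065 over ES cells was not called. The log ratio of the scanner software, which adds no offset, put it at -1.60 there (limma adjusted p = 0.00414) and called it lower. The normalized log2 level, on the scale of the red channel, was 6.39 in iPS cells and 15.4 in MEFs.

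Cd44 was called higher in MEFs than in ES cells and lower in iPS cells than in ES cells, on 2 of its 3 probes. Probe A_52_P229536 stood at -2.23 and -2.18 on the iPS arrays and at 3.50 and 3.65 on the MEF arrays. Every MEF array was above ES cells and every iPS array below them. It rose by 3.57 ± 0.055 in MEFs over ES cells (11.9-fold, limma adjusted p = 6.7e-09). It fell by 2.20 ± 0.055 in iPS cells over ES cells (4.61-fold lower, adjusted p = 4.83e-08) and stood at -5.77 ± 0.077 in iPS cells over MEFs (adjusted p = 5.37e-09).

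The second Cd44 probe, A_52_P523459, printed in 10 spots, stood at -2.03 and -2.16 on the iPS arrays and at 4.56 and 4.60 on the MEF arrays, with its spots on 1 array spread by an SD of 0.043 to 0.18. The tested ratios were -2.10 ± 0.051 in iPS cells over ES cells (limma adjusted p = 4.58e-08) and -6.68 ± 0.073 over MEFs (102-fold lower, adjusted p = 4.1e-09). It was not well above background in iPS cells on either array, so the iPS fold is a bound. Cd44 by this probe was at least 4.25-fold lower than in ES cells. Over MEFs the bound was at least 110-fold lower, above the tested ratio. Such a bound takes for the dim side, on each array, the higher of the dimmest signal that still passed the background rule and the probe's own signal, and dye bias can enter it; over MEFs it rests on the red channels alone. The third probe, A_51_P407053, showed little of this: -0.06 and 0.00 on the iPS arrays and 0.24 and 0.15 on the MEF arrays, with no call in any comparison. The scanner's log ratio gave this probe 1.18 in MEFs over ES cells (adjusted p = 0.0118) and -1.26 in iPS cells over MEFs (adjusted p = 0.027) and called both, in the direction of the other probes. It begins at base 1851 of the transcript, against 3985 and 5225 for the others, and was well above background only in MEFs. The probes of this gene differed in size, by an amount that depends on the background step, and they were not averaged.
Cd44 A_51_P407053 (chr2:102635102-102635161, minus strand): tcatagtacaacccttcagcctactgcagc
Cd44 A_52_P229536 (chr2:102613589-102613648, minus strand): cactgggatcttatcatcagataagcaggt
Cd44 A_52_P523459 (chr2:102612349-102612408, minus strand): gccaattgcttaggtatgtacaatgagttt

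Icam1 moved the other way from Cd44, lower in MEFs than in ES cells and higher in iPS cells than in MEFs on both probes. Probe A_51_P408506, in 10 spots, stood at 0.99 and 1.03 on the iPS arrays and at -1.31 and -1.28 on the MEF arrays. It fell by 1.29 ± 0.046 in MEFs over ES cells (2.45-fold lower, limma adjusted p = 2.07e-07). In iPS cells it stood 1.01 ± 0.046 above ES cells (2.01-fold, adjusted p = 9.81e-07), just past the 2-fold line, and at 0.99 without iPS replicate 2 it was no longer called. The second probe, A_52_P613241, was called lower in MEFs (-1.02 ± 0.046) and not called in iPS cells over ES cells (0.70 ± 0.046). Over MEFs the clone was higher on both probes, by 2.30 ± 0.065 (4.92-fold, adjusted p = 8.06e-08) and 1.72 ± 0.066 (3.30-fold, adjusted p = 3.26e-07). With the arrays centred on their median in place of loess, both calls in MEFs over ES cells were lost (-0.98 and -0.88). That scaling moved the median of all probes to 0.12 and 0.14 over ES cells and the share of calls that were higher to 66.4% from 50.3% in MEFs and to 62.0% from 42.7% in iPS cells.

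Cd9 was highest in iPS cells. Its tested probe stood at 1.78 and 1.88 on the iPS arrays and at 0.53 and 0.53 on the MEF arrays. The iPS arrays were above both MEF arrays. It rose by 1.83 ± 0.049 in iPS cells over ES cells (3.56-fold, limma adjusted p = 7.15e-08) and by 1.31 ± 0.070 over MEFs (2.47-fold, adjusted p = 1.91e-06). The MEF value over ES cells, 0.53 ± 0.049, was under 2-fold; with median centring it passed 2-fold and was called. The other Cd9 probe lies in the opposite orientation and was not well above background in any RNA.

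Kit and Alpl had the largest differences in the direction of the stem cells. Kit, in 10 spots, stood at 3.60 and 3.66 on the iPS arrays and at -1.68 and -1.66 on the MEF arrays. The iPS clone rose by 3.63 ± 0.047 over ES cells (12.3-fold, limma adjusted p = 6.13e-09). The tested ratios were -1.67 ± 0.047 in MEFs over ES cells (limma adjusted p = 6.46e-08) and 5.30 ± 0.066 in iPS cells over MEFs (39.3-fold, adjusted p = 4.68e-09). In MEFs Kit was not well above background on either array. As a bound, it was at least 3.19-fold lower in MEFs than in ES cells. The bound over MEFs, from red levels and above the tested ratio, put the clone at least 47.1-fold higher.

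Alpl stood at 2.74 and 2.83 on the iPS arrays and at -4.27 and -4.18 on the MEF arrays. It fell by 4.23 ± 0.052 in MEFs over ES cells (18.7-fold lower, limma adjusted p = 4.51e-09) and rose by 2.79 ± 0.052 in iPS cells over ES cells (6.90-fold, adjusted p = 1.5e-08). Over MEFs, the clone's value of 7.01 ± 0.073 (129-fold, adjusted p = 4.05e-09) was the 12th highest of the 27710 probes. Levels thus ran iPS cells, ES cells, MEFs for both genes, with each step past the test. The spot of Alpl on the array of iPS replicate 2 carries a background flag, and removing all spots with such flags leaves Alpl without a value there and untested. The probes that gave these values begin as follows.
Kit A_51_P355906 (chr5:75937959-75938018, plus strand): tgtggtcatgtacgagactgtcaccagtta
Alpl A_51_P494125 (chr4:137013819-137013878, minus strand): cctctttttggtgttggttaaaagggaaca
Tm4sf1 A_51_P240614 (chr3:57375576-57375635, minus strand): gtatattttccctgtgttgtgagactttgc

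In the limma fit with the offset, the fucosyltransferases showed no call at 2-fold. Fut4 stood at -0.88 and -0.87 on the iPS arrays and at -0.23 and -0.02 on the MEF arrays, with both iPS arrays below the MEF arrays. The difference of -0.75 ± 0.085 in iPS cells over MEFs (limma adjusted p = 0.000126) and the -0.87 ± 0.060 over ES cells (adjusted p = 8.35e-06) passed the p threshold without reaching 2-fold. By the scanner's log ratio Fut4 was called lower in both, at -1.32 over MEFs (adjusted p = 0.00206) and at -1.57 over ES cells (adjusted p = 0.000673). The 3 tested Fut9 probes ran from 0.10 to 0.18 in iPS cells over ES cells. They were not well above background in MEFs, so only bounds can be given there: at least 1.19-fold to 1.42-fold lower in MEFs than in ES cells, and at least 1.24-fold to 1.73-fold higher in iPS cells than in MEFs, with none called. Low levels limit these values: the brightest Fut9 probe averaged a normalized log2 level of 6.92 in iPS cells and 6.05 in MEFs. The scanner's log ratio put the 3 probes at -3.39 to -2.43 in MEFs over ES cells and at 3.15 to 4.01 in iPS cells over MEFs, and called them in both. Without background subtraction A_52_P22474 (1.03) and A_52_P419089 (1.34) were called in iPS cells over MEFs, and A_52_P419089 (-1.05) in MEFs over ES cells. The size for Fut9 thus depends on the background step.

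**Figure D2:**
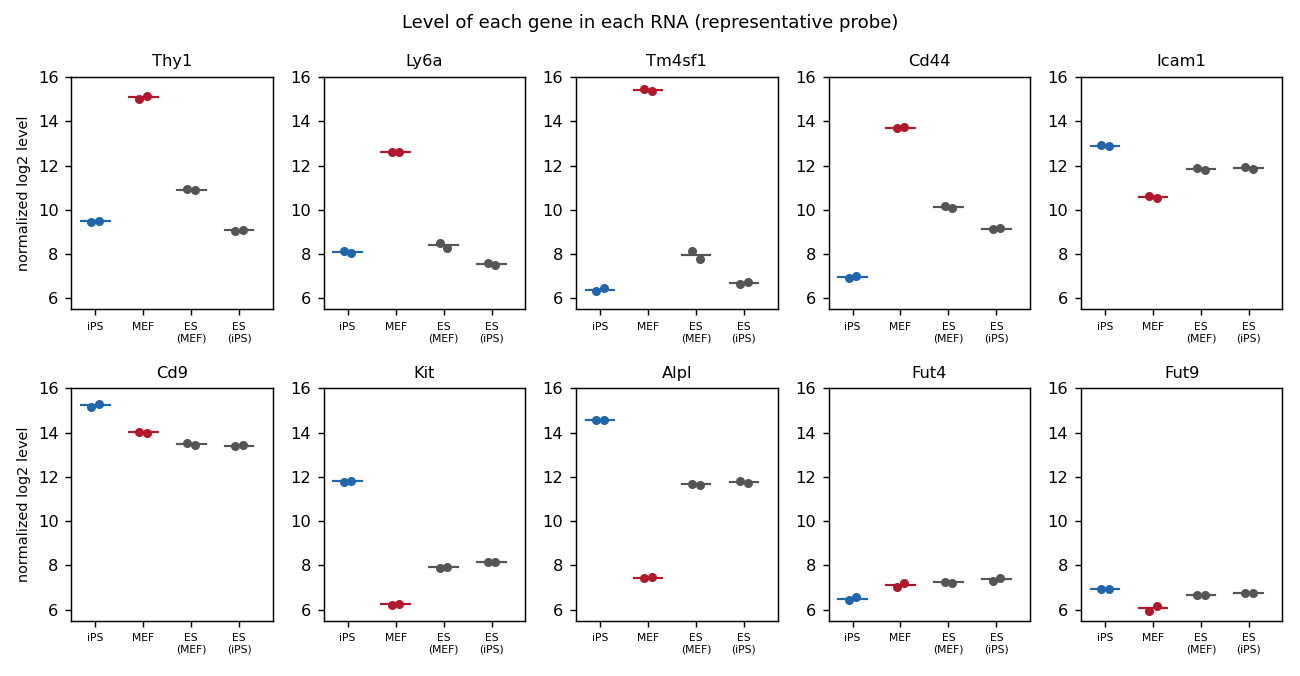
Normalized log2 level of the brightest probe of each gene in iPS cells (blue, red channel), MEFs (red, red channel) and ES cells (grey, green channel) on the MEF arrays and on the iPS arrays. Each point is an array and each line the mean of 2 arrays. The grey points of Thy1, Ly6a, Tm4sf1 and Cd44 are higher on MEF arrays than on iPS arrays, while those of the other 6 genes are closer, Kit the least so at -0.26.

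ES cells were on every array, so their green signal can be set against itself. For the Thy1 probe A_52_P479249 the green signal after subtraction of the local background was 1462 and 1463 on the MEF arrays, against 363 and 383 on the iPS arrays. The same ES line thus read 3.92-fold higher beside MEF RNA, and after normalization the difference was 1.84 ± 0.055 (limma adjusted p = 2.55e-07). Tm4sf1 gave 167 and 129.5 on the MEF arrays, against 31 and 35 on the iPS arrays, a normalized difference of 1.27 ± 0.094 (adjusted p = 8.63e-05). Both were called at 2-fold, so 2 of the 16 probes were higher, where 0.0866% of all probes (24 of 27710) were higher and 0.0433% lower. This comparison was made after those levels had been seen.

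Ly6a and Cd44 differed in green without reaching 2-fold. Ly6a gave 252.5 and 216 on the MEF arrays, against 100.5 and 92 on the iPS arrays (0.84 ± 0.080, limma adjusted p = 0.000452). The Cd44 probe A_52_P229536 gave 882 and 855.5, against 394 and 410 (0.99 ± 0.057, adjusted p = 1.83e-05), while the Cd44 probe A_52_P523459 gave 204.8 and 214.3, against 179.5 and 187.7 (0.11 ± 0.053, adjusted p = 0.228). The second Thy1 probe, not well above background in green on the iPS arrays, differed by 0.11 ± 0.060 (adjusted p = 0.259). Probes of the same gene therefore differed in the green channel by unequal amounts. Of the 4849 probes lower in iPS cells over MEFs, 23 were higher in green on the MEF arrays and 5 lower, and of the 4197 probes higher in iPS cells over MEFs, 1 was higher and 5 lower. Marker lists differed in green as well: the 8 fibroblast markers summed to 27060 and 26380 on the MEF arrays, against 33470 and 32560 on the iPS arrays, and the 8 pluripotent cell markers to 111600 and 117600, against 63400 and 62130. The fibroblast markers as a sum were thus lower in green on the MEF arrays, where Thy1 and Tm4sf1 were higher. The cause of the green differences was not tested.

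The choice of ES values bears on the ratios of those 4 genes. It may also bear on the marker lists, whose green sums differed too, and no exchange of ES values was made for them. Set against each other without the ES channel, the red channels gave iPS cells over MEFs as -5.60 for Thy1 A_52_P479249 (-3.76 through ES cells), -9.02 for Tm4sf1 (-7.75), -4.55 for Ly6a (-3.71) and -6.77 for Cd44 A_52_P229536 (-5.77). Alpl (7.14), Kit (5.56) and Cd9 (1.24) differed little between the routes. The counts of calls were 5 higher and 6 lower by either route, against 16.9% higher and 16.7% lower among all probes by red channels. Red MEF levels set against green ES levels of the iPS arrays came to 6.02 for this Thy1 probe, 5.08 for Ly6a and 8.72 for Tm4sf1. The opposite exchange, red iPS levels set against green ES levels of the MEF arrays, came to -1.43 for this Thy1 probe, -0.31 for Ly6a, -1.57 for Tm4sf1 and -3.20 for Cd44 A_52_P229536. The order of iPS and ES cells for this Thy1 probe and Ly6a, and the size for Tm4sf1 and Cd44, thus depend on which ES values are used. These exchanges were computed after seeing the data and carry no test.

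**Figure D3:**
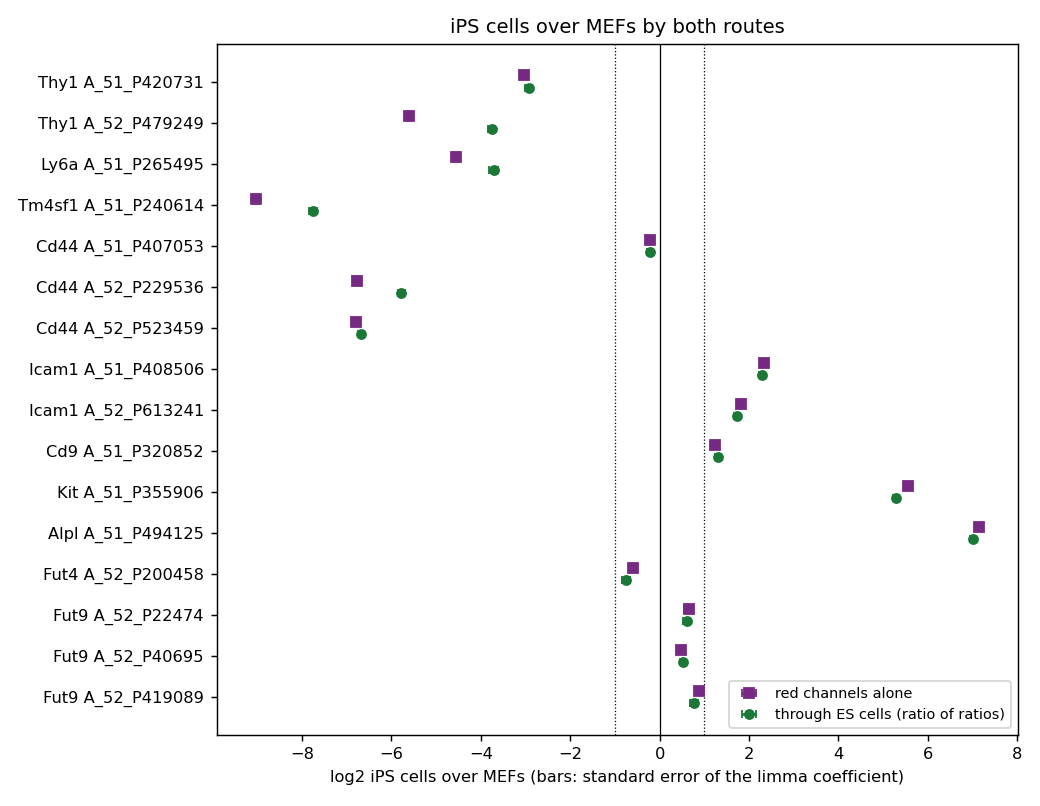
Log2 ratio of iPS cells over MEFs for each tested probe, computed through the ES channel (green circles) and from the red channels alone (purple squares), with standard errors that are mostly smaller than the symbols. The routes separate for Thy1 A_52_P479249, Tm4sf1, Ly6a and Cd44 A_52_P229536 and nearly coincide for the others.

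Markers of several cell types were read beside these results, and the lists differed in direction. The summed normalized level of the 8 fibroblast markers was 1743 to 1776 in iPS cells and 644200 to 661500 in MEFs, and 26380 to 33470 in ES cells, where all 8 were well above background. The clone thus had less fibroblast marker signal than the ES culture. In iPS cells over ES cells Cd44 was also lower. Thy1 (0.41 and 0.17), Ly6a (0.53) and Tm4sf1 (-0.30) were not called there in the fit used here. The part of fibroblast transcripts in the Cd44 result was not tested. Germ cells also carry Kit, and their 6 markers summed to 83180 and 76460 in iPS cells and 607.2 and 610.5 in MEFs, against 3294 to 5000 in ES cells, and all 6 were called higher in iPS cells over ES cells, Dazl by 6.87 ± 0.059. The part of germ cell transcripts in the Kit result was not tested. The 7 epithelial markers summed to 28920 to 30480 in iPS cells and 17930 to 18780 in MEFs, against 400600 to 430200 in ES cells. Leukocytes also carry Thy1, Ly6a, Icam1, Cd44 or Kit, and their 8 measured markers summed to 1695 and 1751 in iPS cells, 1398 and 1404 in MEFs and 1609 to 1697 in ES cells. The leukocyte antigen Ptprc (CD45) was well above background in MEFs but not in iPS or ES cells, as was Adgre1, and Csf1r was so on both MEF arrays, on 1 iPS array and not in ES cells. In MEFs over ES cells Cd14 was called higher (1.37 ± 0.058), as was Adgre1 (at least 2.47-fold), while Coro1a was lower (-1.80 ± 0.055). Other calls lay in iPS cells: over ES cells Laptm5 was higher (1.53 ± 0.050) and Coro1a lower (-1.31 ± 0.055). Over MEFs Laptm5 was higher (2.41 ± 0.071) and Adgre1 lower (at least 2.40-fold). The 4 measured mast cell and melanocyte markers, cells that depend on Kit, summed to 2631 and 2775 in iPS cells and 417.1 and 436.5 in MEFs, against 444.2 to 487.6 in ES cells, with 1 called, Mlana at 3.27 ± 0.054 in iPS cells over ES cells. The 6 measured endothelial markers summed to 9869 and 10220 in iPS cells and 4659 and 5054 in MEFs, against 4572 to 4966 in ES cells. They went both ways. Emcn was higher in MEFs over ES cells (5.04 ± 0.067) and at least 39.6-fold lower in iPS cells than in MEFs. Kdr and Egfl7 were lower in MEFs over ES cells (-1.54 ± 0.048 and -1.24 ± 0.053). The clone had 2 of the 6 higher than ES cells, Robo4 (4.36 ± 0.16) and Tek (1.01 ± 0.076), and 1 lower, Kdr (-4.10 ± 0.048). Kdr was lower in the clone than in MEFs as well (-2.55 ± 0.068), where 3 of the 6 were higher and 2 lower. The part of leukocyte, mast cell, melanocyte and endothelial transcripts in the marker results was not tested.

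Related genes were counted in lists that leave the members out. In MEFs over ES cells 13.8% of all genes were higher and 13.8% lower. The shares were 9.08% and 12.1% in iPS cells over ES cells and 16.9% and 19.0% in iPS cells over MEFs. They are the background for every list below, and no list was tested against them. Of 20 other fibroblast and mesenchymal surface genes, 15 were higher in MEFs than in ES cells, 3 lower and 2 not called (median 1.68, beside -0.012 over all genes). Vcam1, an adhesion molecule, rose by 5.46 ± 0.077 and Pdgfrb, a growth factor receptor, by 4.15 ± 0.051, whereas Nt5e (CD73), the ecto-nucleotidase, was lower at -2.39 ± 0.054 and Cd274 (PD-L1) at -1.61 ± 0.052. Over MEFs, in the clone, 0 were higher, 13 lower and 7 not called (median -1.95), with Cd248 (endosialin) at -6.95 ± 0.073. Relative to ES cells, 1 was higher in the clone, the endothelial and mesenchymal antigen Eng at 1.25 ± 0.071, and 7 were lower (median -0.51).

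Of 20 other surface genes used for pluripotent cells, 2 were higher in MEFs than in ES cells, 10 lower and 8 not called (median -0.80). The epithelial adhesion genes Cdh1 and Epcam stood at -5.73 ± 0.056 and -4.62 ± 0.072, whereas the tetraspanin Cd81 was higher at 1.77 ± 0.049. Relative to ES cells, 3 were higher in the clone, 9 lower and 8 not called (median -0.083). Pecam1 (CD31) rose by 2.08 ± 0.047 and Prom1 (CD133) and Cd24a stood at -3.38 ± 0.10 and -2.90 ± 0.046. Over MEFs 8 were higher and 4 lower (median 0.47), led by Cdh1 at 4.44 ± 0.079 and Tdgf1 (Cripto) at 3.91 ± 0.070.

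Within the families of the members, the direction differed from gene to gene. Of 22 measured tetraspanins and L6 genes, the family of Cd9 and Tm4sf1, 3 were higher and 15 lower in iPS cells over MEFs (median -1.40), so Cd9, which was higher, was with the smaller number. Tspan13 stood at 3.15 ± 0.075 and Tspan6 at -2.99 ± 0.066 there. In MEFs over ES cells 6 were higher and 2 lower (median 0.37), and in iPS cells over ES cells 1 was higher and 7 lower (median -0.39). Of 18 measured genes of the Ly6 family, 7 were higher and 4 lower in MEFs over ES cells (median 0.20), with Ly6c1 at 4.61 ± 0.074 and Lynx1 at 3.37 ± 0.047. The clone had 4 of them higher and 5 lower than ES cells (median 0.038), among them Ly6g6e at 3.23 ± 0.051 and Plaur, the urokinase receptor, at -2.41 ± 0.046. Over MEFs it had 3 higher and 7 lower (median -0.28). Near-identical Ly6 genes can share probe signal, so single Ly6 values are uncertain.

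Of 18 measured genes of fucose and Lewis X synthesis, 6 were higher and 1 lower in MEFs over ES cells (median 0.36). Over ES cells the clone had 1 higher, 0 lower and 17 not called (median -0.16), and in iPS cells over MEFs 1 was higher and 8 lower (median -0.72). The sialyltransferases St3gal2 (1.71 ± 0.046) and St3gal4 (1.52 ± 0.055) rose in MEFs, and B3gnt5, which extends the chains that carry Lewis X, fell there by 1.78 ± 0.056. Of 21 measured ligands, partners and processing enzymes of the members, 8 were higher and 0 lower in MEFs over ES cells (median 0.85), among them the integrin Itgb3 (2.95 ± 0.045) and the protease Mmp14 (2.05 ± 0.047). Against ES cells the clone had 3 higher and 6 lower (median -0.030), and in iPS cells over MEFs 1 was higher and 9 lower (median -0.71). Has2, which makes the hyaluronan that Cd44 binds, stood at -5.32 ± 0.056 in iPS cells over ES cells and at -6.26 ± 0.079 over MEFs. Of 7 measured genes of other alkaline phosphatases and cell surface phosphate metabolism, 2 were higher and 0 lower in MEFs over ES cells, Ank at 2.72 ± 0.046 and Enpp1 at 2.61 ± 0.055 (median -0.095). In iPS cells over ES cells 0 of the 7 were called in limma, since none reached 2-fold, with 6 at an unadjusted p under 0.05 (median -0.020), and in iPS cells over MEFs 0 were higher and 2 lower, again Ank and Enpp1 (median -0.27).

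**Figure D4:**
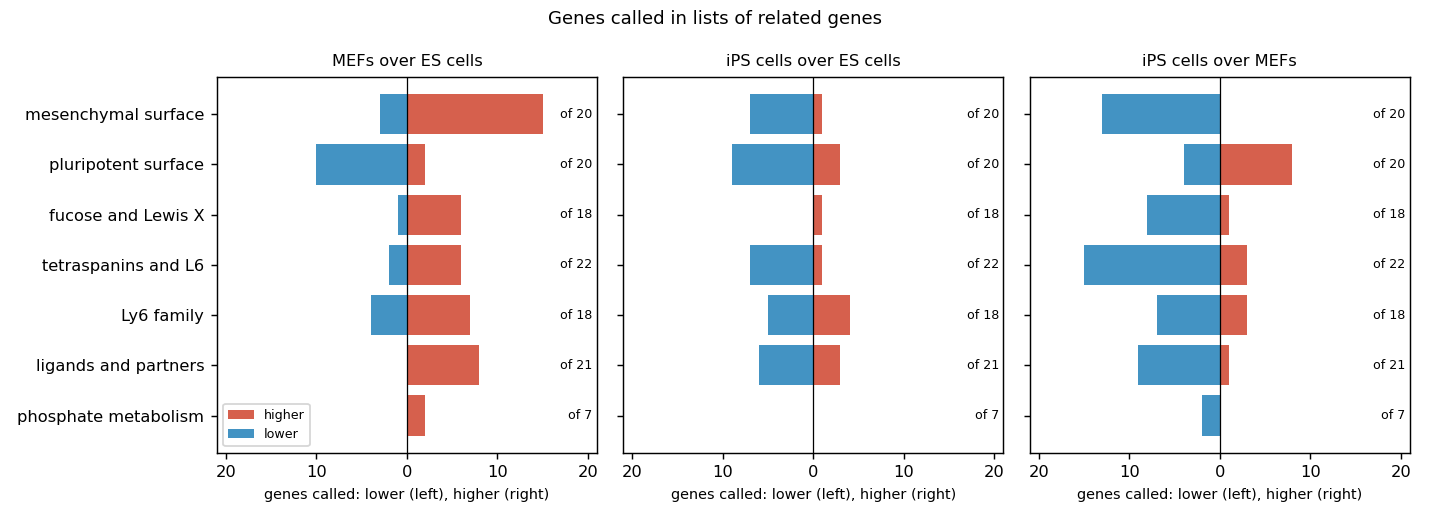
Genes called higher (red bars, right) and lower (blue bars, left) in each list of related genes for the 3 comparisons, with the number measured at the right edge. Mesenchymal surface genes point right in MEFs over ES cells (15 of 20) and left in iPS cells over MEFs (13 of 20).

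The gene whose ratios on the 4 arrays lay closest to each member, among 15433 other genes, was found by Euclidean distance and without a test. Thy1 and Ly6a had the same closest gene, Grb14, an adaptor protein of receptor signalling, at distances of 0.10 and 0.26. Tm4sf1 lay closest to Cavin2, a component of caveolae (distance 0.31, with 7.65 in MEFs over ES cells). Icam1 lay closest to Tcf7l1, a transcription factor of the Wnt pathway (0.045). Alpl lay 0.83 from its closest gene, Nr0b1, an orphan receptor of pluripotent cells, the largest of the 10 distances. The closest genes of the others were Uba1y for Kit (0.12), Cox6b2 for Cd9 (0.13), Tmem132e for Fut4 (0.077) and Qk for Fut9 (0.056).

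RefSeq promoter windows on GRCm38 were at hand for 7 of the 10 genes, 9 windows in all. Tm4sf1 and Alpl, the genes that fell and rose furthest in iPS cells over MEFs, are shown with each CG dinucleotide in capitals. The 250 bases before the start of Tm4sf1 hold 1 CG, and 18.8% of the 32851 windows of this length hold no more. Those before the upstream start of Alpl hold 20, and 83.7% hold no more, whereas those before its downstream start hold 4. The median window holds 6. The other windows ran from 5 (Cd44) to 18 (Kit). The motif TATAAA, on either strand, is in 1 of the 9 windows, that of the downstream Alpl start, and in 12.4% of all windows. These are letters in a window and not evidence of use.
Tm4sf1 (chr3:57301989-57302238, minus strand): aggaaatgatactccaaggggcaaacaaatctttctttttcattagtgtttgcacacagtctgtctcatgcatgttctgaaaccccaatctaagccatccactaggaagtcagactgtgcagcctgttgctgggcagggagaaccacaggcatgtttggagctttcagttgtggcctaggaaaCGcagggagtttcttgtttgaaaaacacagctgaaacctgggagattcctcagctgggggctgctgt
Alpl (chr4:137796385-137796634, minus strand): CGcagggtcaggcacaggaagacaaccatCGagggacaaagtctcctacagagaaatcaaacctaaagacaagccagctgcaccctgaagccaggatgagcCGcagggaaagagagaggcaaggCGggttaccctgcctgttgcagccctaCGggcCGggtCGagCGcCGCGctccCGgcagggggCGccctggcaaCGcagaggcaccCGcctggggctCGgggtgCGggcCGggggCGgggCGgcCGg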

How the data were processed

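Per the file headers, the authors read the spots with Agilent Feature Extraction 10.5.1.1. The deposited intensity columns used here are each spot's mean signal and median local background in both channels, not normalized. The deposited log10 ratio, made by the same software from its processed signals, and the identical series table served as an alternative. Probe coordinates are those of the files, on mm8.

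Signals were corrected with normexp (offset 50, which pulls dim ratios toward 0) in limma 3.58.1 (R 4.3.3) and normalized by loess (span 0.3, control spots at weight 0). The log2 ratios of the deposited intensities, with spots of a probe averaged, were fitted with lmFit and eBayes, 1 coefficient a group. The plan removed feature-flagged spots only. Spots with a local background over 500 were removed too, a departure adopted after the counts and member values under 3 spot rules had been seen. Probes well above background in at least 1 RNA on all its arrays, with a value on 4 arrays, were tested (27710). The ratio against 0 leaves out the ES cells' own spread. Levels are from loess and Aquantile. The steps were tested on simulated data.

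Members and lists were chosen with earlier results of these data known. All member genes are named, with the values or range of their tested probes; from each list, examples came from the 2 genes with the largest called change in each direction by the brightest probe, and 1 closest gene was named for each member except Cd44, for which it is not reported here. Cell type markers named as examples were picked from their lists. Names came from RefSeq where the accession matched (24375 probes; 17 of 19 members), otherwise from the files. Alternatives were other background, flag, scaling, filter and probe rules, a replicate block and leaving out each array; the ES-channel and red-channel comparisons and the exchanges of ES values were added after seeing the data.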

Additional observations from a re-analysis of the deposited data

Results flagged for a closer look

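The ES green level of the Fut9 probe A_51_P417758 was 7.19 (normalized log2) on the array of MEF replicate 1, against 6.04 to 6.14 on the other 3 arrays, a gap beyond Dixon's 95% critical value for 4 samples. About 1 group in 20 passes that value by chance. The red MEF level there was also high, at 7.39, against 6.04 on the array of MEF replicate 2. The probe was not tested and enters no result above.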

How the results depend on the processing

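The array count limits the precision, and dim genes (Fut9 and Fut4, Kit in MEFs) are limited by signal over background. The calls rest on leaving out 14 spots of MEF replicate 1, of which the planned rule already removed 6. Member probes higher and lower in MEFs over ES cells, iPS cells over ES cells and iPS cells over MEFs were 0 and 0, 2 and 0, and 2 and 0 with normexp over all spots (all probes called: 79 and 2946 in the comparisons with MEFs), and the same with marked spots kept (200 and 3086). With only feature flags left out, the planned rule, they were 0 and 0, 2 and 0, and 2 and 1 (578 and 3626). These settings ended 22 or 23 of the 27 member calls and gained 0; with background-flagged spots left out too, 45 of 45 member results, calls or not, were kept. The scanner's log ratio gave 7 lower in MEFs over ES cells, 4 lower in iPS cells over ES cells and 8 higher in iPS cells over MEFs (all probes 11468, 9322 and 13826), and median centring gave 2 lower in MEFs over ES cells. The filter on both channels left 8 probes, with 3 higher in MEFs over ES cells, 1 lower in iPS cells over ES cells and 3 lower in iPS cells over MEFs. With 1 probe a gene, or the mean of its probes, 1 was lower in iPS cells over ES cells, and the mean gave 4442, 3417 and 6024 calls, over fewer features. Where no cause is named, the cause was not tested. No member result reversed. Leaving out 1 array ended 1 member call (Icam1 in iPS cells over ES cells, 0.99 without iPS replicate 2).

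Replicate numbers are not stated to pair samples, and same-numbered deviations correlated at -0.113. With a replicate block 6870, 5161 and 9047 probes were called, against 6870, 5161 and 9046 without it. With crossed numbers (added after seeing the data) 6870, 5161 and 9047 were called.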
